A study of Mus musculus with 5 samples.

Results

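Imprinted genes are transcribed mainly from 1 parental allele, and many of them act on fetal and early postnatal growth. The 10 genes H19, Igf2, Dlk1, Mest, Peg3, Plagl1, Cdkn1c, Meg3, Grb10 and Ndn were followed in the cells of the mouse temporomandibular joint (TMJ) disc. They were chosen by symbol, with earlier results of these data known. All 10 were found among the 27998 genes of the files, and all 10 are described here. The disc was profiled by droplet single-cell RNA sequencing (10x Genomics 3′ chemistry), in which each captured transcript is counted once by its unique molecular identifier (UMI). There were 5 libraries of C57BL/6 wild-type mice: intact discs from newborns of 3 d, from juveniles of 3 w, from adults of 16 w and from aged mice of 78 w, plus injured discs. By the study's methods for its injury model, discs were injured with a needle at 5 w and collected 2 w later. An age of 7 w is therefore taken for the injured library. Each condition had 1 library, and the number of mice behind it is not given in the sources used here, so no difference has a replicate check and none was tested. The words lower, higher and fall describe these libraries. Newborn pups were male and female, and the mice of the 3 other intact libraries were male, so sex and age cannot be told apart at that step. For the injured disc the study's methods describe a Myh11-CreER tracer line, while the sample labels give wild type, and no uninjured library of 7 w was analysed here.

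Igf2 encodes a growth factor that signals through the IGF1 receptor and is cleared by the IGF2 receptor. H19, next to it, gives a non-coding RNA that hosts miR-675. Dlk1, a Notch-family membrane protein that restrains differentiation, shares a cluster with the non-coding RNA gene Meg3. Peg3 and Plagl1 encode zinc-finger regulators, Mest an α/β-hydrolase-fold protein of the endoplasmic reticulum, and Ndn a MAGE-family protein that restrains proliferation. Cdkn1c (p57, an inhibitor of cyclin-dependent kinases) and Grb10 (an adaptor that damps insulin and IGF1 receptor signals) are growth inhibitors. In several mouse organs genes of this group are known to decline after birth.

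On GRCm38 (mm10), H19 lies at chr7:142575529-142578143, Igf2 at chr7:142650766-142666816 and Cdkn1c at chr7:143458339-143461050, all on the minus strand of one chromosome arm. Peg3 (chr7:6703892-6730431, minus strand) and the single-exon gene Ndn (chr7:62346569-62350262, plus strand) lie elsewhere on chromosome 7. Dlk1 (chr12:109452823-109463336) and Meg3 (chr12:109541001-109571726) follow each other on the plus strand of chromosome 12. Mest is at chr6:30723547-30748465 and Plagl1 at chr10:13060504-13131694, both on the plus strand, and Grb10 is at chr11:11930508-12038683 on the minus strand. H19 and Meg3 are annotated as long non-coding RNAs and the others as protein-coding genes. Igf2os, Copg2 and Gm26906 overlap Igf2, Mest and Meg3 on the opposite strand. Their stromal levels in the 5 libraries were at most 1.4, 9.43 and 4.13 CPM (UMIs per 1000000 UMIs of the class), far under the members at 3 d. At 3 w, 16 w and 78 w stromal Copg2, at 8.48, 6.23 and 6.96 CPM, was above Mest, at 2.06, 1.61 and 0.883. Igf2os and Gm26906 stayed under their members.

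The sequences shown are those of miR-675, which is cut from H19, the member with the lowest stromal ratio, and of the Peg3 and Meg3 promoters, the ones with a match to the first or the second of 5 motifs searched. The mature miR-675 strands lie inside H19 (chr7:142577112-142577133 and chr7:142577078-142577099, minus strand), with the seed, bases 2 to 8, in capitals. The libraries count 3′ ends of polyadenylated RNA and do not measure these strands.
mmu-miR-675-5p: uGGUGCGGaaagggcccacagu
mmu-miR-675-3p: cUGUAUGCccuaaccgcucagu

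RefSeq promoter windows on GRCm38.p6, from 250 bases before to 50 after a start, were matched for 8 of the 10 genes. They were searched on both strands for GGGGCCCC, a core that PLAGL1 is known to favour, and for the TATA box in the form TATAAA. The CCAAT box, the E-box (as CACGTG) and the GC box (as GGGCGG) were searched too. Among the members' 15 windows, GGGGCCCC was found only in that of Peg3, and 1.07% of all 32817 windows hold it. TATAAA was found only in the first Meg3 window, as 2 overlapping matches, 1 on each strand, and 13.6% of all windows hold it. The CCAAT box was found in windows of Igf2, Peg3 and Meg3 (37.4% of all windows hold it) and the E-box in that of Plagl1 (7.15%). The GC box was found in windows of Igf2, Mest, Plagl1, Grb10 and Ndn (35.6%). The Peg3 window (chr7:6730370-6730669, minus strand) has 13 CpG sites and the Meg3 window (chr12:109540746-109541045, plus strand) has 13, beside a median of 7 over all windows. CpG sites are in capitals. These matches describe the letters only.
Peg3: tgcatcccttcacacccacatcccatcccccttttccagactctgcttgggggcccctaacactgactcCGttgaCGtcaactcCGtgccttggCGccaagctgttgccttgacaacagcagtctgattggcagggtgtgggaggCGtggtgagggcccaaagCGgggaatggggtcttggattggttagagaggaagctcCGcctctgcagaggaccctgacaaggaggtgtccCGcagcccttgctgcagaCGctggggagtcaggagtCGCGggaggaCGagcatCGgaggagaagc
Meg3: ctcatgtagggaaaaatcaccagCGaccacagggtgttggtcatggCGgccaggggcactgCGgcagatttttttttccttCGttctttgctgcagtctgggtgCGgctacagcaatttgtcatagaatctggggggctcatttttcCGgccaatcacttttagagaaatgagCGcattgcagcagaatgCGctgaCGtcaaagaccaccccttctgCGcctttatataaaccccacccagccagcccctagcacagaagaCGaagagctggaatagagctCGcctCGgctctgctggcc

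The files hold 8467 to 15169 barcodes and 31585993 to 125427849 UMIs a library, and 51688 cells passed the filters. Pairs of libraries shared 19 to 39 barcodes. Clusters were built without the 10 members or any of 51 other imprinted genes, so the members' levels did not place a cell. Of 11 clusters, 3 were stromal (high Col1a1, Col1a2, Dcn and related fibroblast genes), and 1 each was endothelial-like (EC), mural-like (MC, pericytes and smooth muscle), macrophage-like (MPh), synovial lining-like, erythroid-like and Schwann-like. All 8 EC, 9 MC and 8 MPh markers were at least 2-fold higher in their own cluster than the lower quartile of the other clusters, with 5 CPM added to both. Stromal, EC, MC and MPh cells numbered 10786, 1157, 351 and 357 at 3 d and 8327, 680, 277 and 295 at 78 w. Stromal transcripts were present in every other class: the 8 stromal markers summed to 33844 CPM in the 3 d stroma and still to 9472 in ECs, 10555 in MCs and 7524 in MPhs. Free RNA and droplets that hold a pair of cells were not removed by a caller, so a member's level in a non-stromal class can include stromal RNA. Such levels are to be read beside the stromal reference genes that are given further below. Levels are given as CPM: a gene's UMIs added up within a class of 1 library, per 1000000 UMIs of those cells. Intervals are exact 95% intervals that cover counting error only.

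**Figure D1:**
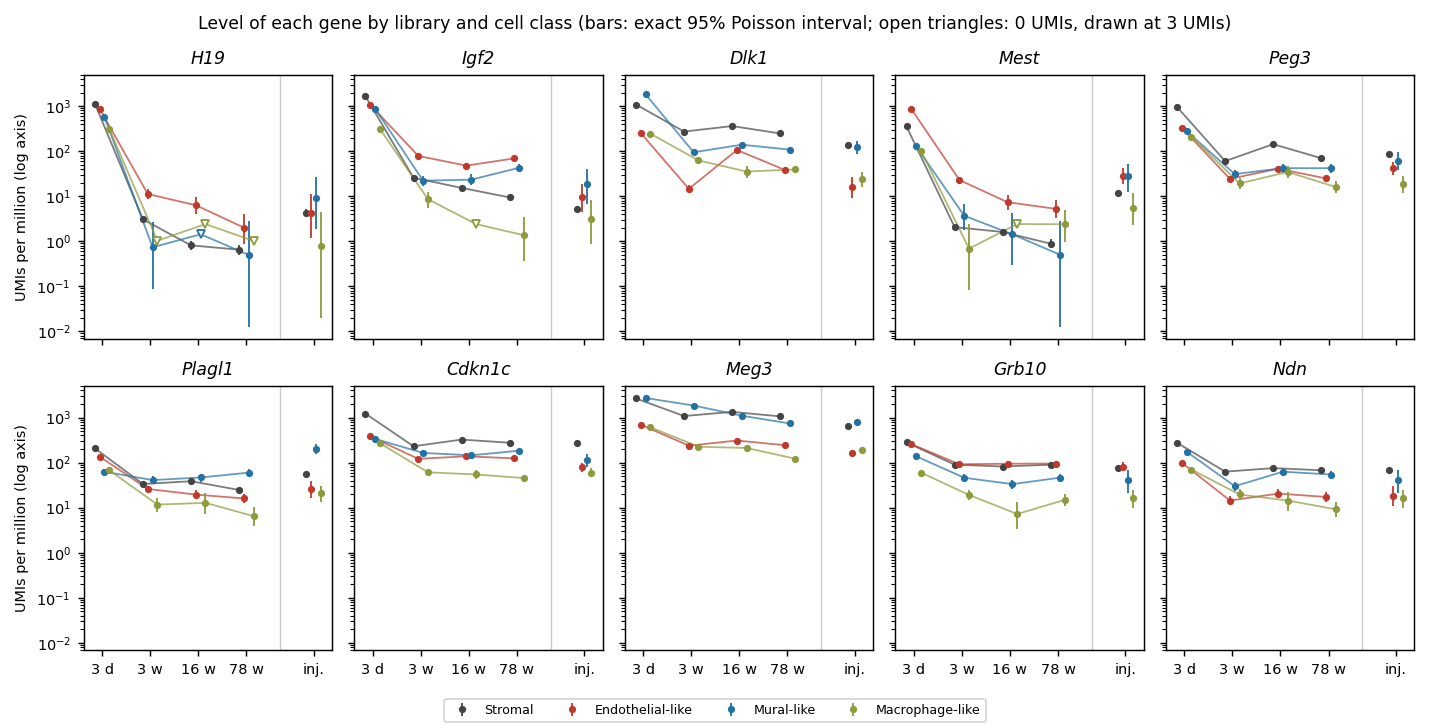
Level of each gene (CPM, log axis) in stromal, endothelial-like, mural-like and macrophage-like cells of the 4 stages and the injured disc; points are 1 library each, bars are exact 95% Poisson intervals, and open triangles mark 0 UMIs, drawn at 3 UMIs. All 10 genes start high at 3 d, and H19, Igf2 and Mest fall furthest: stromal H19 goes from 1138 to 0.652, while stromal Meg3 goes from 2649 to 1060.

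In the stroma every one of the 10 genes was lower at 78 w than at 3 d, and 8 of them were at least 4-fold lower. Of all 7617 stromal genes with a mean of at least 10 CPM over the 2 libraries, 3.57% were lower by that much. No member was 4-fold higher, beside 4.71% of all genes. The members were chosen with earlier results of these data known, so these shares are a description and not a test. The median member was 6.4-fold lower, and the range ran from 2.5-fold for Meg3 to 1747-fold for H19. H19 had the fourth-lowest ratio of all 7617 genes (rank 4), Mest rank 12 and Igf2 rank 19. Meg3 and Grb10 were the 2 members that missed the 4-fold mark.

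Most of the fall had taken place by 3 w. At 3 w, 7 of the 10 were at least 4-fold lower than at 3 d, where 3.28% of 7705 genes were. The counts at 3 w were 7 in ECs (4.28% of all genes), 6 in MCs (4.75%) and 6 in MPhs (2.6%). On the log2 scale, 79.2% of the stromal fall of H19, 80.6% of that of Igf2 and 85.9% of that of Mest lay between these stages. Peg3, Cdkn1c and Ndn reached their lowest level at 3 w and stood above it at 16 w. From 3 w to 16 w, the intervals of 6 members lay above no change and those of 4 below it. These intervals cover counting error only, and the share of all genes with an interval off no change was not taken. No member moved 4-fold, and H19 came nearest, at 3.78-fold lower. Of the 7459 genes with a mean of at least 10 CPM, 0.469% were 4-fold lower and 0.442% higher. H19 and Mest were under that mean and are not among them.

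H19 and Igf2 are neighbours under a shared imprinting control region, and with Mest they had the 3 lowest stromal ratios among the members. Stromal H19 was at 1138 CPM in newborn discs, then 3.07 (3 w), 0.811 (16 w) and finally 0.652 in aged discs (95% interval 0.496 to 0.84). Its ratio of 78 w to 3 d was 0.000573 (0.000436 to 0.000739). The little that was left was not spread over the stroma: the 59 UMIs at 78 w sat in 6 of 8327 cells, 58 of them in stromal cluster 3, and none of the 6 shared a barcode with the 3 d library. At 3 d, 114858 UMIs lay in 8826 of 10786 cells.

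Stromal Igf2 was at 1662 CPM in newborn discs, then 25.7 (3 w), 15.3 (16 w) and finally 9.4 in aged discs (8.78 to 10.1), a 177-fold fall. Its remainder was of another kind: 851 UMIs in 570 cells at 78 w, 1.49 a cell. ECs did not follow the stroma. EC Igf2 was at 1068 CPM in newborn discs, then 78.3 (3 w), 47.7 (16 w) and finally 69.2 in aged discs (61.3 to 77.9), a 15.4-fold fall (13.7 to 17.5). MCs were at 879, 22.1, 23.3 and 42.9 CPM, a 20.5-fold fall. The EC ratio of 78 w to 3 d was 11.5 times the stromal one and the MC ratio 8.64 times. The order of the classes turned: at 3 d ECs held 0.643 of the stromal level (0.629 to 0.656) and at 78 w 7.36 times it (6.4 to 8.44). MPhs, at 314 CPM at 3 d, had 4 UMIs at 78 w (1.36 CPM, 0.371 to 3.49). The marker gate, an alternative that takes cells by their own markers, put the MC ratio at 0.0144 in place of 0.0489, a deeper fall.

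After each cell was thinned to 1000 UMIs, 6.03% of ECs (4.32 to 8.15) and 5.84% of MCs (3.37 to 9.31) had an Igf2 UMI at 78 w, beside 0.951% of stromal cells (0.754 to 1.18). MPhs had it in 0 of 285 cells (up to 1.29%) and erythroid-like cells, which should lack it, in 0 of 27 (up to 12.8%). Without thinning these shares were 14.4%, 23.5%, 6.85% and 1.36%, at median depths of 4852, 5920, 9803 and 9046 UMIs. Thinning left out 33 ECs, 3 MCs, 24 stromal cells and 10 MPhs.

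EC H19 fell from 869 CPM in newborn discs to 11.2 (3 w), then 6.32 (16 w) and finally 2.01 in aged discs (0.866 to 3.95, 8 UMIs in 5 cells). MC H19 fell from 574 CPM to 0.737 at 3 w, to 0 UMIs at 16 w and to 1 UMI at 78 w, with a ratio to 3 d of 0.00087 (2.201e-05 to 0.00485). MPh H19 was at 313 CPM at 3 d and had no UMI in any of the 3 older intact libraries. With 3 UMIs put in place of 0 it was 306-fold lower at 78 w, a ratio of 0.00327 with an interval up to 0.00402. That 3 d level lay within the range of the stromal reference genes in MPhs, 0.156 to 0.286 of the stroma. The 78 w to 3 d ratio was 4.03 times the stromal one in ECs, and its interval lay above it. With the 3 stromal clusters at equal weight, the stromal ratio was 0.00251, which the EC interval (0.000996 to 0.00455) took in. For MCs the interval took in the stromal ratio.

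Dlk1 and Meg3 share an imprinted domain and moved less than H19 and Igf2. Stromal Dlk1 was at 1083 CPM in newborn discs, then 272 (3 w), 360 (16 w) and finally 247 in aged discs, a 4.39-fold fall (4.32 to 4.45). Stromal Meg3 went from 2649 CPM to 1080, 1334 and 1060, a 2.5-fold fall. MCs had the highest Dlk1 of the 4 classes at 3 d, 1825 CPM, and then 94.4, 139 and 108. That 16.9-fold fall (14.8 to 19.5) was deeper than the stromal one, and the order of MCs and stroma turned between 3 d and 3 w. MC Dlk1 after 3 w rested on few cells. At 16 w 291 UMIs lay in 39 of 239 cells, with 97 UMIs in the top cell. At 78 w 216 UMIs lay in 35 of 277 cells, with 52 UMIs in the top cell. MC Meg3 declined at every stage, 2713, 1847, 1099 and 738 CPM, and only 29.5% of its log2 fall lay before 3 w. EC Dlk1 stood at 252, 14.6, 106 and 38.1 CPM and rested on few cells: 401 UMIs in 43 of 572 cells at 16 w. EC Meg3 stood at 693, 237, 309 and 243 CPM. At 3 d EC Dlk1 and EC Meg3 both lay within the range of the stromal reference genes in ECs, 0.215 to 0.355 of the stroma.

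For stromal Dlk1 the share of carrying cells was lower at 78 w, and the UMIs per carrying cell were not. Of stromal cells, 86.1% had a Dlk1 UMI at 3 d and 20.3% at 78 w, but the cells that had one held 11.8 UMIs on average at 3 d and 13.2 at 78 w. With each cell thinned to 1000 UMIs the shares were 48.2% and 9.24%, and the means were 2.32 and 2.64. For 3 d erythroid-like cells, which should lack Dlk1, the share was 15.3% and, thinned, 5.02% (2.83 to 8.14), and median depths were 4848 UMIs there and 8437 and 9803 in the stroma of 3 d and 78 w. The other 9 genes differed: their mean UMIs per carrying cell were lower at 78 w both before and after thinning. Cdkn1c went from 12.2 to 4.12 UMIs per carrying cell while 94.2% and 72.7% of stromal cells had it, and Meg3 from 25.1 to 12.6 while 98.9% and 91.5% did. The 78 w means of H19 rest on 6 cells and, thinned, on 3.

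**Figure D2:**
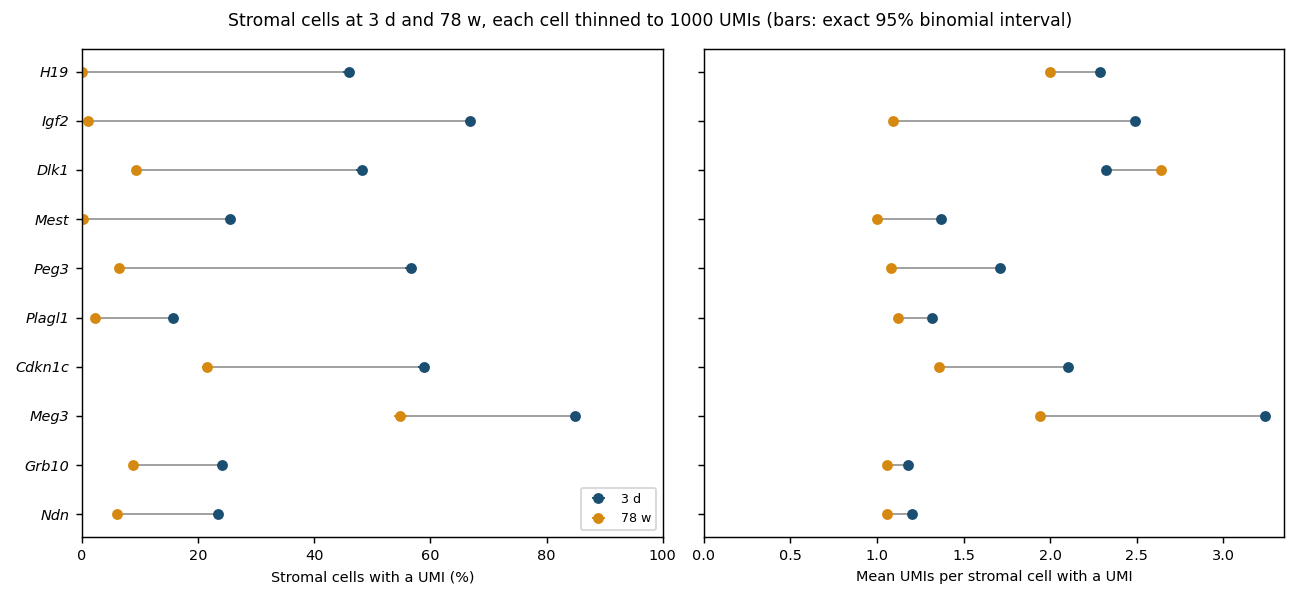
Share of stromal cells with a UMI of each gene (left, %) and mean UMIs in the cells that have one (right) at 3 d and 78 w, each cell thinned to 1000 UMIs; bars are exact 95% binomial intervals. All 10 shares are lower at 78 w; Dlk1 is the 1 gene whose mean per carrying cell is not, at 2.32 and 2.64.

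Of the 22368 stromal Dlk1 UMIs at 78 w, 21068 lay in stromal cluster 1, which is led by Cytl1, Ibsp and Chad. Its Dlk1 was at 693, 368, 469 and 322 CPM over the 4 stages, a 2.15-fold fall. In cluster 2, led by Coch, Spp1 and Kera, Dlk1 went from 733 to 65.1 CPM, 11.3-fold. In cluster 3, led by Pi16, Sfrp2 and C1qtnf3, it went from 1479 to 25.7 CPM, 57.5-fold. Meg3 showed the same order, with falls of 1.74, 2.59 and 6.54-fold. Cluster 3 had the highest newborn H19 and Igf2 of the 3 stromal clusters: at 3 d it had 1897 CPM of H19, beside 362 and 476 in clusters 1 and 2, and 2390 CPM of Igf2, beside 952 and 1018. Cluster 3 was 4445 of 10786 stromal cells at 3 d and 843 of 8327 at 78 w. Given equal weight, the 3 clusters left 7 of 10 members at least 4-fold lower in place of 8, and the stromal H19 ratio was 4.38 times higher, at 0.00251. The share of all genes past 4-fold was not taken at equal weight.

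**Figure D3:**
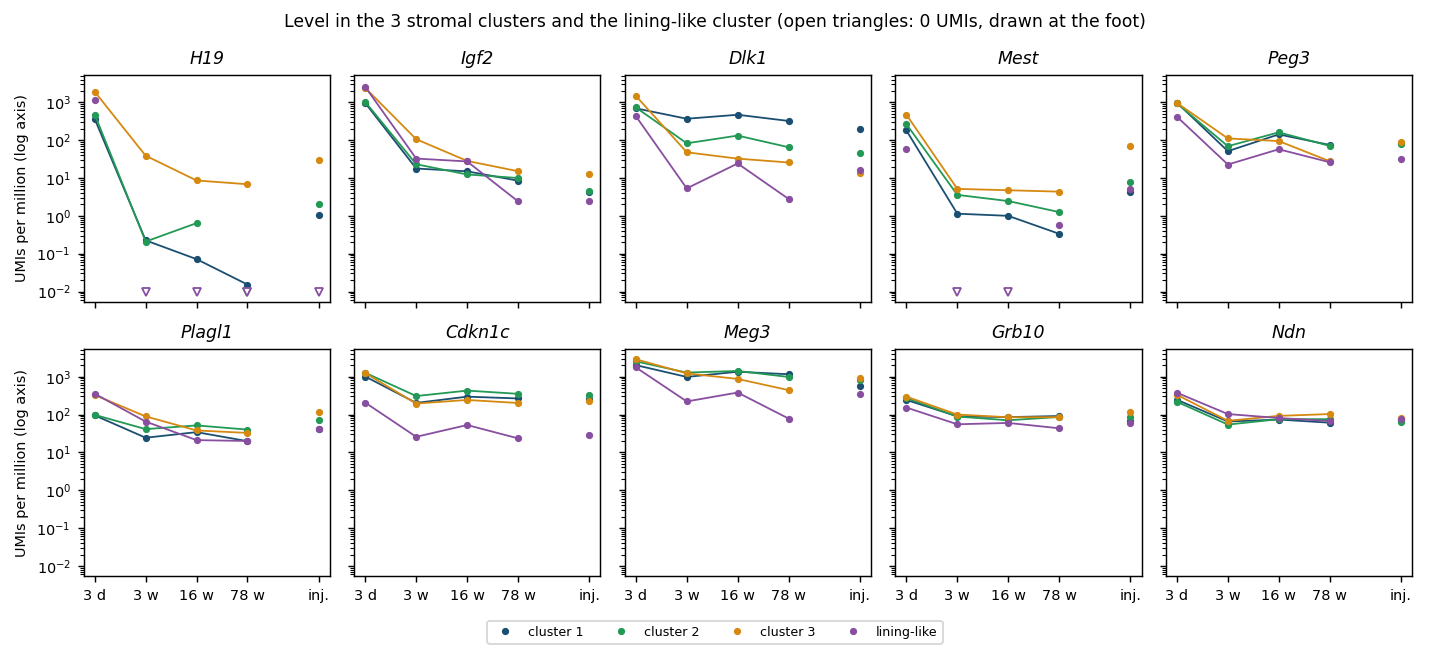
Level of each gene (CPM, log axis) in the 3 stromal clusters and the synovial lining-like cluster by stage, 1 library a point; open triangles at the foot mark 0 UMIs and may overlie each other (H19 at 78 w, cluster 2 and lining-like). Dlk1 stays at 322 in cluster 1 at 78 w and reaches 25.7 in cluster 3, and lining-like H19 has no UMI after 3 d.

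Lining-like cells, the Prg4 and Clic5 cells of the joint surface, had the highest 3 d Igf2 of the named classes, 2535 CPM, and fell to 2.42 at 78 w, 1046-fold. Their H19, 1119 CPM at 3 d, had no UMI later, and their Mest was low at 3 d already, at 57.9 CPM beside 353 in the stroma. Their Meg3 fell 22.5-fold, from 1763 to 78.5 CPM.

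In the newborn disc Mest was higher in ECs than in the stroma. ECs held 863 CPM at 3 d (843 to 883), stromal cells 353 (350 to 357), MCs 128 and MPhs 102. EC Mest then stood at 22.9, 7.37 and 5.26 CPM, a 164-fold fall (107 to 265). The stroma stood at 2.06, 1.61 and 0.883 CPM, a 400-fold fall (321 to 505). ECs were above the stroma at every stage, by 2.44 times at 3 d and 5.96 times (3.5 to 9.73) at 78 w, where only 21 EC UMIs were counted. MC Mest was at 3.69 and 1.43 CPM at 3 w and 16 w and had 1 UMI at 78 w.

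Peg3 had close ratios of 78 w to 3 d in ECs and stroma. Stromal Peg3 was at 952, 60.2, 143 and 69.6 CPM, and EC Peg3 at 330, 24.3, 40.8 and 24.8. The falls were 13.7-fold (13.3 to 14) and 13.3-fold (10.9 to 16.4), and the EC interval took in the stromal value. At 3 d the EC level was 0.347 of the stromal one, within the range of 12 stromal reference genes in ECs (0.215 to 0.355), and in stroma-poor ECs, a set defined below, it was 142 CPM in place of 330. MC Peg3, 276 CPM at 3 d, fell 6.59-fold (5.26 to 8.34), less than the stroma. The MC ratio ranged from 0.047 with the marker gate to 0.403 in stroma-poor MCs, around a value of 0.152.

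Plagl1 set MCs apart. Stromal Plagl1 was at 207 CPM at 3 d and at 33.5, 38.6 and 24.7 after, and EC Plagl1 at 136, 26, 19.5 and 16, with falls of 8.36-fold and 8.5-fold. In stroma-poor ECs Plagl1 fell further, from 121 to 4.87 CPM, a ratio of 0.0403 in place of 0.118. MC Plagl1 was at 62.9 CPM in newborn discs (54.4 to 72.3), then 40.9 (3 w), 46.7 (16 w) and finally 59.9 in aged discs (49.7 to 71.7). Its 78 w to 3 d ratio was 0.953 (0.753 to 1.2), the only interval among the 10 members and 4 classes that took in 1. The 120 MC UMIs at 78 w lay in 52 of 277 cells, with 53 of them in the top 5 cells. At 78 w MCs held 2.42 times the stromal level (2 to 2.91). The ratio of 78 w to 3 d depended on how MCs were taken: in place of 0.953 it was 2.23 in stroma-poor MCs and 0.176 with the marker gate, which admitted 748 cells at 3 d in place of 351.

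The growth inhibitors Cdkn1c and Grb10 moved little beside H19, Igf2 and Mest, as did stromal Dlk1, Meg3 and Ndn. Stromal Cdkn1c was at 1225, 230, 324 and 276 CPM, 4.44-fold lower at 78 w, and stromal Grb10 at 281, 90.1, 81.9 and 89.8 CPM, 3.13-fold lower. EC Grb10 kept level with the stroma at all 4 stages, at 256, 91.6, 94.3 and 95.3 CPM, or 0.911, 1.02, 1.15 and 1.06 times the stromal level. MC Grb10 was lower at 138, 46.1, 33.3 and 46.4 CPM, and its 2.98-fold fall had an interval (2.37 to 3.77) that took in the stromal value. Cdkn1c fell 3.06-fold in ECs, from 381 to 124 CPM, and 1.83-fold in MCs, from 336 to 184 CPM. In stroma-poor ECs the fall was smaller, from 147 to 89.7 CPM, a ratio of 0.61 in place of 0.326. In stroma-poor MCs the fall of Cdkn1c was not seen, with a ratio of 1.08 and an interval (0.871 to 1.34) that took in 1. With the marker gate it was deeper, with an MC ratio of 0.129 in place of 0.548. The unnamed cluster 5, which was led by muscle genes such as Myog and Acta1 and whose cells were shallow (median 746 UMIs at 3 d), had 3522 CPM of Cdkn1c at 3 d, above the 1225 of the stroma.

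Stromal Ndn was at 275, 62.9, 75.4 and 67.5 CPM, 4.08-fold lower at 78 w (3.97 to 4.2). EC Ndn went from 98.9 to 17.3 CPM, 5.72-fold, and MC Ndn from 175 to 54.4 CPM, 3.22-fold. Its stromal interval crossed the 4-fold mark, as did no other stromal interval.

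**Figure D4:**
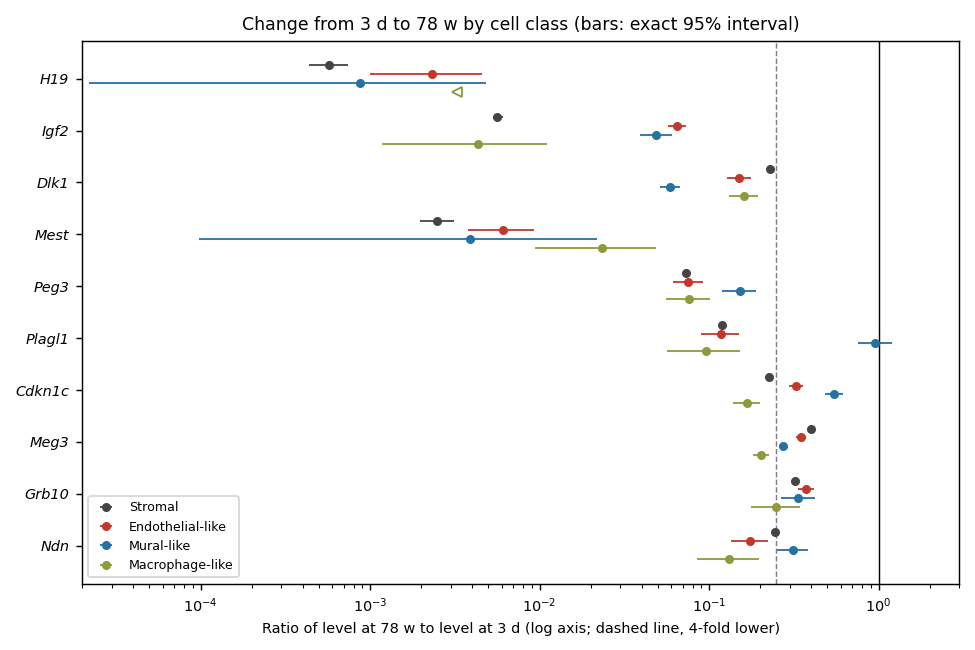
Ratio of the level at 78 w to that at 3 d (log axis) for each gene in 4 cell classes; bars are exact 95% intervals, the dashed line marks 4-fold lower, and the open triangle is a bound from 0 UMIs. Stromal points lie left of the dashed line for 8 of 10 genes; the mural-like point of Plagl1, at 0.953, is the only one whose interval takes in 1.

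Over the 10 genes, 7 were at least 4-fold lower at 78 w in ECs (3.43% of all 8142 genes), 5 in MCs (4.26% of 8120) and 10 in MPhs (3.59% of 7518). The MC count was higher with the marker gate, as given in the closing section. MPh Grb10 lay on the 4-fold mark, with a ratio of 0.25 (0.177 to 0.346). In MPhs 8 of the 10 lay within the stromal reference genes at 3 d, and the median of those genes was 0.223 of the stromal level at 3 d and 0.114 at 78 w, and the part of this in the MPh count was not tested. No member was 4-fold higher in any of them, beside 4.2%, 5.7% and 2.06% of all genes. The median falls were 7.55-fold, 5.13-fold and 9-fold. In ECs the intervals of H19, Igf2, Mest, Cdkn1c and Grb10 lay on the side of a smaller fall than in the stroma and those of Dlk1, Meg3 and Ndn on the side of a larger one, while Peg3 and Plagl1 took in the stromal ratio. With the 3 stromal clusters at equal weight, the stromal ratio was 0.00251 for H19, 0.0065 for Mest, 0.142 for Dlk1 and 0.347 for Meg3. The EC intervals of these genes took in those values. Those of Igf2, Cdkn1c, Grb10 and Ndn stayed on the same side. The EC intervals of Peg3 and Plagl1 no longer took in the stromal ratio, at 0.0602 and 0.178. The stromal reference genes in ECs were themselves lower at 78 w, with a median of 0.182 of the stromal level beside 0.265 at 3 d. Dlk1, Meg3 and Ndn moved with them, from 0.233, 0.262 and 0.359 to 0.154, 0.229 and 0.256. The part of stromal RNA in their falls was not tested. In MCs, Igf2, Peg3, Plagl1, Cdkn1c and Ndn fell less than in the stroma, Dlk1 and Meg3 fell more, and H19, Mest and Grb10 took in the stromal ratio. For Peg3 and Cdkn1c this side depended on how MCs were taken. With the marker gate their MC ratios were 0.047 and 0.129, below the reported stromal 0.0731 and 0.225. Those of Igf2 and Plagl1, at 0.0144 and 0.176, stayed above the stromal 0.00565 and 0.12. With the stromal clusters at equal weight, the MC interval of Ndn also took in the stromal ratio, at 0.301. These intervals compare pairs of libraries and not ages.

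How much of a member's signal a class carried apart from stromal RNA was read within the 3 d library. Stromal RNA that is free or in doublets was taken to reach another class in about 1 ratio for all stromal genes. This is rough: in 3 d erythroid-like cells Dcn stood at 0.0353 of the stromal level and Ptn at 0.0642, with intervals apart. On that basis 12 stromal reference genes (among them Col1a1, Dcn, Lum and Ptn) gave the range of that ratio. In ECs their level relative to the stroma ran from 0.215 to 0.355. Of the 10 members, 6 lay above this range, Mest at 2.44, Grb10 at 0.911, H19 at 0.764, Plagl1 at 0.659, Igf2 at 0.643 and, by little, Ndn at 0.359. Dlk1, Meg3, Cdkn1c and Peg3 lay within it, at 0.233, 0.262, 0.311 and 0.347. In MCs the reference ran from 0.11 to 0.838, with the tendon gene Tnmd highest and Prg4 next at 0.409. Dlk1, at 1.68, and Meg3, at 1.02, lay above it, and 6 members lay above Prg4. In MPhs the reference ran from 0.156 to 0.286, and 8 members lay within it, with Plagl1 at 0.327 and Mest at 0.287 above. The share of all genes above these ranges was not taken. The counts therefore describe single genes and are not read as a trait of the members as a set.

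The members' ratios to the stroma were also taken in stroma-poor cells, those at or below the median of their class and library for the share of UMIs from the 12 reference genes. The choice itself lowers the reference genes, so the members are set only against their own values in all cells of the class. In 579 stroma-poor ECs, Mest was at 3.21, Grb10 at 0.925, H19 at 0.673, Igf2 at 0.608 and Plagl1 at 0.584, beside 2.44, 0.911, 0.764, 0.643 and 0.659 in all ECs. The other 5 genes differed by more: Dlk1 at 0.042 beside 0.233, Meg3 at 0.0457 beside 0.262, Cdkn1c at 0.12 beside 0.311, Peg3 at 0.149 beside 0.347 and Ndn at 0.152 beside 0.359. In 176 stroma-poor MCs, Dlk1 was at 1.78 and Meg3 at 0.999, beside 1.68 and 1.02 in all MCs, and Peg3 was at 0.0832 beside 0.29. In 179 stroma-poor MPhs, H19 was at 0.056 beside 0.275, Dlk1 at 0.0353 beside 0.226, Plagl1 at 0.121 beside 0.327 and Cdkn1c at 0.0747 beside 0.22.

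**Figure D5:**
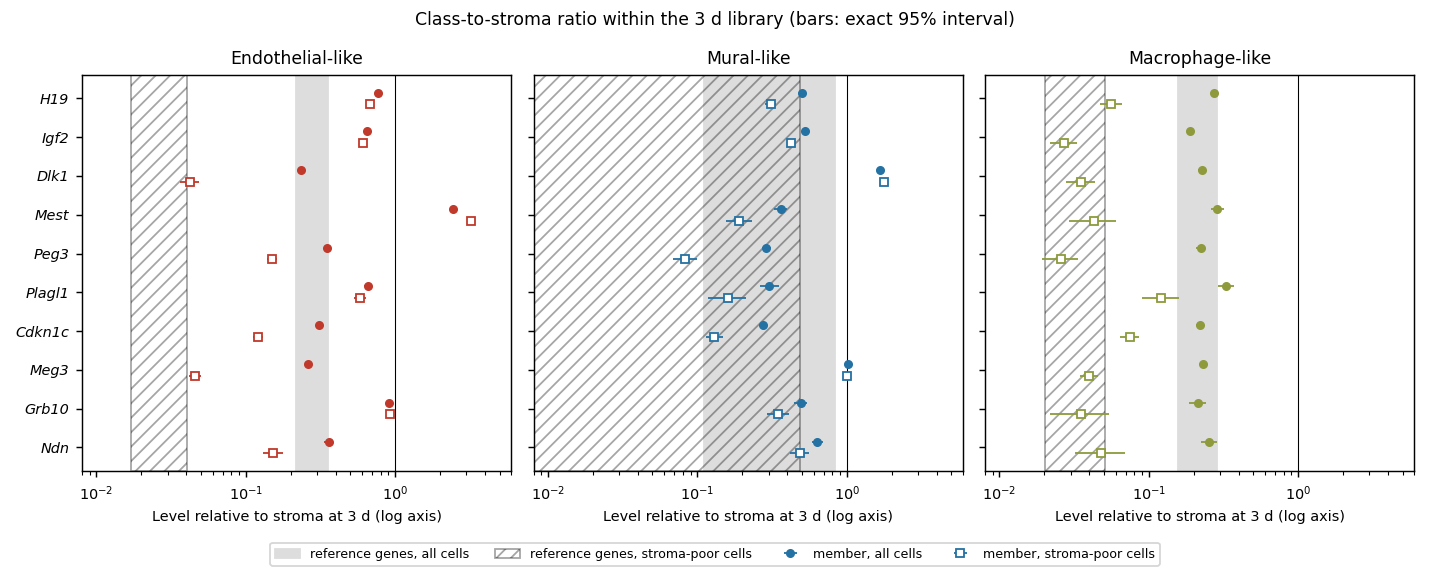
Level of each gene in a class relative to the stroma of the same 3 d library (log axis), in all cells of the class (filled) and in stroma-poor cells (open); bars are exact 95% intervals, grey (all) and hatched (stroma-poor) bands the range of 12 stromal reference genes, the hatched band lowered by the choice of cells and reaching to 0 in mural-like cells. Endothelial-like Mest is at 2.44 and 3.21, whereas endothelial-like Dlk1 is at 0.233 and 0.042.

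Erythroid-like cells, 339 at 3 d, should make neither collagen nor the members. There the members stood at 0.0397 to 0.0894 of the stromal level and the reference genes at 0.0139 to 0.0781. Erythroid markers were high in the EC class at 3 d, 20246 CPM beside 750 in the stroma, and at 396 at 78 w, and their part in the EC values was not tested. At a finer clustering resolution of 0.5, 879 of the 1157 newborn ECs fell in the same cluster. None of the 8 stromal markers there was 2-fold above the lower quartile of the other clusters. These 879 cells held 1050 CPM of Mest, 1090 of Igf2, 867 of H19 and 73.3 of Dlk1 at 3 d. They were not free of stromal RNA, with Col1a1 at 775 CPM, Col1a2 at 789 and Ptn at 500. At 78 w the 589 cells of that cluster held 88.9 CPM of Igf2 and 2.14 of H19. The other 278 newborn ECs fell in a cluster of high UMI counts with both endothelial and stromal markers, and there Dlk1 was at 572 CPM and Mest at 527.

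Dividing cells were frequent at 3 d, so the members were read against the cell cycle in the 3 d stroma. In 986 cells with at least 5 UMIs of 10 cycle genes, Meg3 was at 1863 CPM, Peg3 at 737 and Cdkn1c at 1026, beside 2819, 989 and 1257 in 6976 cells with none. These are ratios of 0.661, 0.745 and 0.816. H19 went the other way, 1305 against 1059 CPM, a ratio of 1.23 (1.21 to 1.25). The remaining 6 were within 0.965 to 1.06. Median depths were 12736 and 7832 UMIs per cell, and a share of cells within 1 library gives no replicate.

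The injured disc, taken as 7 w old, is set beside the intact libraries of 3 w and 16 w. Stromal Mest was at 11.7 CPM (10.5 to 13), beside 2.06 at 3 w and 1.61 at 16 w, and in stromal cluster 3 it was at 68 CPM beside 5.16 and 4.75. Plagl1 in MCs was at 198 CPM (152 to 253, 64 UMIs), beside 40.9 and 46.7, and in the stroma at 56.8, beside 33.5 and 38.6. Of those 64 MC UMIs, 36 lay in the top 5 cells. Igf2 was lower in stroma and ECs: 5.2 CPM in the stroma (4.39 to 6.12), beside 25.7 and 15.3, and 9.79 in ECs (4.48 to 18.6), beside 78.3 and 47.7. In MCs it was at 18.6 CPM (6.81 to 40.4, 6 UMIs), an interval that took in 22.1 and 23.3. Stromal Dlk1, at 139 CPM, was below both 272 and 360, and stromal Meg3, at 660, below 1080 and 1334. The injured library was the shallowest, with a median of 3299 UMIs a cell beside 7721 to 12496, and unnamed cluster 10, led by Gm26870 and Gm10800, held 163 of its cells. Injury, age and library cannot be told apart here.

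Of 51 other imprinted genes in the files, 24 reached a mean of 10 CPM in the stroma, 1 was at least 4-fold lower at 78 w and 2 were 4-fold higher, with a median ratio of 0.851 beside 0.972 over all genes. Over all genes 3.57% were 4-fold lower and 4.71% higher, beside which the counts of this and the next 3 lists are to be read. Zim1, a zinc-finger gene beside Peg3, fell 557-fold, from 55.4 to 0.0994 CPM. Dio3, a thyroid hormone deiodinase at the far end of the Dlk1 domain, was 6.16 times higher (4.41 and 27.2 CPM), and Atp10a 4.95 times higher (8.26 and 40.9 CPM). Of 13 genes of the IGF axis, 5 were 4-fold lower and 2 higher. Igfbp2, an IGF-binding protein, went from 712 to 0.42 CPM, and Igf1 from 511 to 53.5, whereas Igfbp6, which prefers IGF2, was at 84.1 and 967 CPM. The receptors moved less, with Igf1r at 68.1 and 103 CPM and Igf2r at 128 and 71.5. Of 7 regulators of fetal growth outside imprinting, 5 were 4-fold lower, among them Mdk (624 to 14.1 CPM) and Sox11 (90.2 to 2.33 CPM). Of 13 cell cycle genes 11 were 4-fold lower, and Pcna, at 46.2 and 52.3 CPM, and Mcm6, at 34.3 and 29.1 CPM, were not.

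Each member's profile over the 20 combinations of 4 classes and 5 libraries was set beside that of 8240 genes, as Pearson's r of log2(CPM + 1). The 20 points share libraries and depth, and r is given as a description. The nearest non-member was Tor2a for H19 (0.95), Anapc5 for Igf2 (0.91), Cdh11 for Dlk1 (0.93), Evl for Mest (0.94) and Lgr5 for Peg3 (0.94). It was Ltbp1 for Plagl1 (0.91), P3h1 for Cdkn1c (0.93), Nfatc4 for Meg3 (0.93), Snai2 for Grb10 (0.94) and Cdh11 for Ndn (0.97). Among the members themselves H19 and Mest were nearest to each other (0.95), and Ndn was the nearest member to Dlk1, Peg3, Plagl1, Cdkn1c and Meg3.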

How the data were processed

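The 10 genes and all gene lists were chosen with earlier results of these data known. The values are raw UMI counts per gene and barcode, as deposited; the authors made them with Cell Ranger on build mm10 (version 3.1 in the submitters' processing notes, 4.0.0 in the file header), and every barcode had at least 500 UMIs. The cell filter asked for over 200 UMIs and for mitochondrial shares of up to 30%. Libraries were integrated in Seurat 5.3.0 (R 4.3.3) with 2000 variable features a library and clustered at resolution 0.2, leaving out all imprinted genes listed. Clusters were named by fixed markers. No doublet caller was run. Counts were summed per class and library and scaled to CPM. Intervals are exact Poisson, Clopper-Pearson or conditional ratio intervals at 95%, for counting error only. A count of 0 was set to 3 UMIs for a bound. Features with a mean of at least 10 CPM were compared, and 4-fold was the call. All members are named, and up to 4 genes a list with the largest ratios or going against it. In simulated counts for stromal 78 w against 3 d (7605 genes, 200 changed 8-fold), 100% were recovered. These counts had Poisson error only, so this checks the calculation and says nothing about variation between mice or libraries. Python 3.11.15 and scipy 1.17.1 were used. The 78 w age follows the sample labels.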

Additional observations from a re-analysis of the deposited data

How the results depend on the processing

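No paired analysis was possible because each condition has 1 library. Of 370 ratios of 78 w to 3 d recomputed under 10 settings, 256 stayed within the counting interval of the reported value and 113 others lay outside it. The remaining 1, a called value, moved past 1: Cdkn1c in stroma-poor MCs, at 1.08, with an interval that took in 1. MC Plagl1, whose reported interval took in 1, came to 2.23 in stroma-poor MCs and 1.52 with equal weight per cell. The cause was not tested. At a 10-fold call the members lower were 4 in the stroma, 4 in ECs and 5 in MPhs (1.5%, 1.52% and 1.36% of all genes), and at a 2-fold call 8 in MCs (17.1%). With the marker gate 9 members were at least 4-fold lower in MCs, and 1 lay above the stromal reference genes there at 3 d. The share of all genes was not taken with the gate, so the 9 has no background beside it. In stroma-poor ECs 10 members lay above them, which the choice of cells with few reference UMIs favours by construction, so it supports nothing. Other counts stayed within 1.5 times. The median log2 ratio of all genes was -0.13 in MCs and between -0.07 and -0.02 in the other classes. Leaving out the mixed cluster 14, chosen after seeing the data, gave an EC Igf2 ratio of 0.0816. Ratios that rest on few UMIs moved most: the MC H19 ratio ran from 0.000197 to 0.0216.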
